A study of Mus musculus with 3 samples.

Results

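The insulin-like growth factor (IGF) system was examined as 10 genes in PDL-L2 cells: the ligands Igf1 and Igf2, the receptors Igf1r and Igf2r, and the binding proteins Igfbp2, Igfbp3, Igfbp4, Igfbp5, Igfbp6 and Igfbp7. A probe set, the group of oligonucleotides that reads 1 transcript target on the array, was included if the platform annotation gave 1 of these symbols as its only gene symbol. This rule found 28 probe sets of 45101 on the array, and 10 genes of 18193. 8 of the genes had several probe sets, and Igfbp2 and Igfbp6 had 1 each.

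PDL-L2 is a mouse cell line derived from periodontal ligament fibroblasts, the cells that tether the tooth root to bone. All cultures were of this single immortalised line, were grown in alpha-MEM with serum and received a SMARTpool siRNA, a mixture of siRNAs to 1 target. Total RNA was read on 3 arrays, 1 for each condition: cells given siRNA to endoglin and then 250 ng/ml recombinant human BMP-2 (siENG BMP-2), cells given control siRNA and the same dose of BMP-2 (siCont BMP-2), and cells given control siRNA and vehicle (siCont vehicle). Exposure began 48 h after siRNA treatment and lasted 12 h, in medium that the labels describe as containing ascorbic acid and beta-glycerophosphate. Endoglin is a co-receptor of the TGF-beta family, to which BMP-2 belongs. No array held siENG cells without BMP-2, so knockdown alone was not measured. With 1 array for each condition there was no replicate check of any difference, and no p-value is given.

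Both IGF ligands signal through Igf1r, a receptor tyrosine kinase that drives the PI3K-Akt and MAPK pathways. Igf2r, which is also the cation-independent mannose 6-phosphate receptor, takes up Igf2 for degradation in lysosomes. The binding proteins hold IGFs in the extracellular space, where they can prolong their life, withhold them from Igf1r or release them when proteases cut the complex. In skeletal and dental connective tissue, IGFs are known for promoting cell growth, survival and matrix synthesis.

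The targeted gene was checked first. Eng had signals of 108.2 in siENG BMP-2, 298.5 in siCont BMP-2 and 286.3 in siCont vehicle cells, and its log2 ratio of siENG BMP-2 to siCont BMP-2 was -1.46. The siENG array was brighter as a whole: the median log2 ratio over bright probe sets was 0.21 against siCont BMP-2 and 0.22 against siCont vehicle, and only 0.01 between the siCont arrays. Ratios with siENG are therefore given as deposited and, as "relative" ratios, after that median was subtracted. A signal of 23.0, the median of all probe sets, was the limit that the brighter array had to reach for a ratio to be counted, and 27 control probe sets for Bacillus transcripts, which mouse cells lack, read up to 13.1. Of 9 fibroblast marker genes measured, 7 were above the limit on all 3 arrays, whereas Tnmd and Aspn were within the range of the Bacillus controls on all 3. Summed signals of 5 leukocyte markers were 211.2 in siENG BMP-2, 116.9 in siCont BMP-2 and 131.7 in siCont vehicle cells. Ptprc and Cd3e were within the control range on every array, whereas Cd68 and Csf1r were above the limit on all 3. Cd68 gave 117.6 in siENG BMP-2 cells, with a relative log2 ratio to siCont BMP-2 of 1.02. Csf1r gave 47.7 in siENG BMP-2, 31.4 in siCont BMP-2 and 40.6 in siCont vehicle cells. Lyz2 gave 36.3 in siENG BMP-2, 25.9 in siCont BMP-2 and 11.5 in siCont vehicle cells, the last within the control range. The part of the leukocyte markers in the IGF values was not tested. Summed signals of endothelial, epithelial, adipocyte and muscle markers lay between 22.0 and 403.2. The highest was the adipocyte sum in siCont BMP-2 cells, most of it from Fabp4, at 396.9.

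Of the 28 probe sets, 22 reached the signal limit in at least 1 comparison and 4 stayed within the Bacillus range on all arrays. The probe set with the highest mean signal stood for its gene, and 9 of the 10 genes passed the limit in every comparison. Igfbp3 passed it in none. In place of replicate error, the main log2 ratios of each gene are followed by a robust SD, the spread of log2 ratios among all probe sets of similar signal, which also holds true differences between conditions. Probe sets of 1 gene read the same RNA extract and are not replicates. Each array read a whole culture, so that fewer expressing cells and less RNA per cell cannot be told apart.

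**Figure D1:**
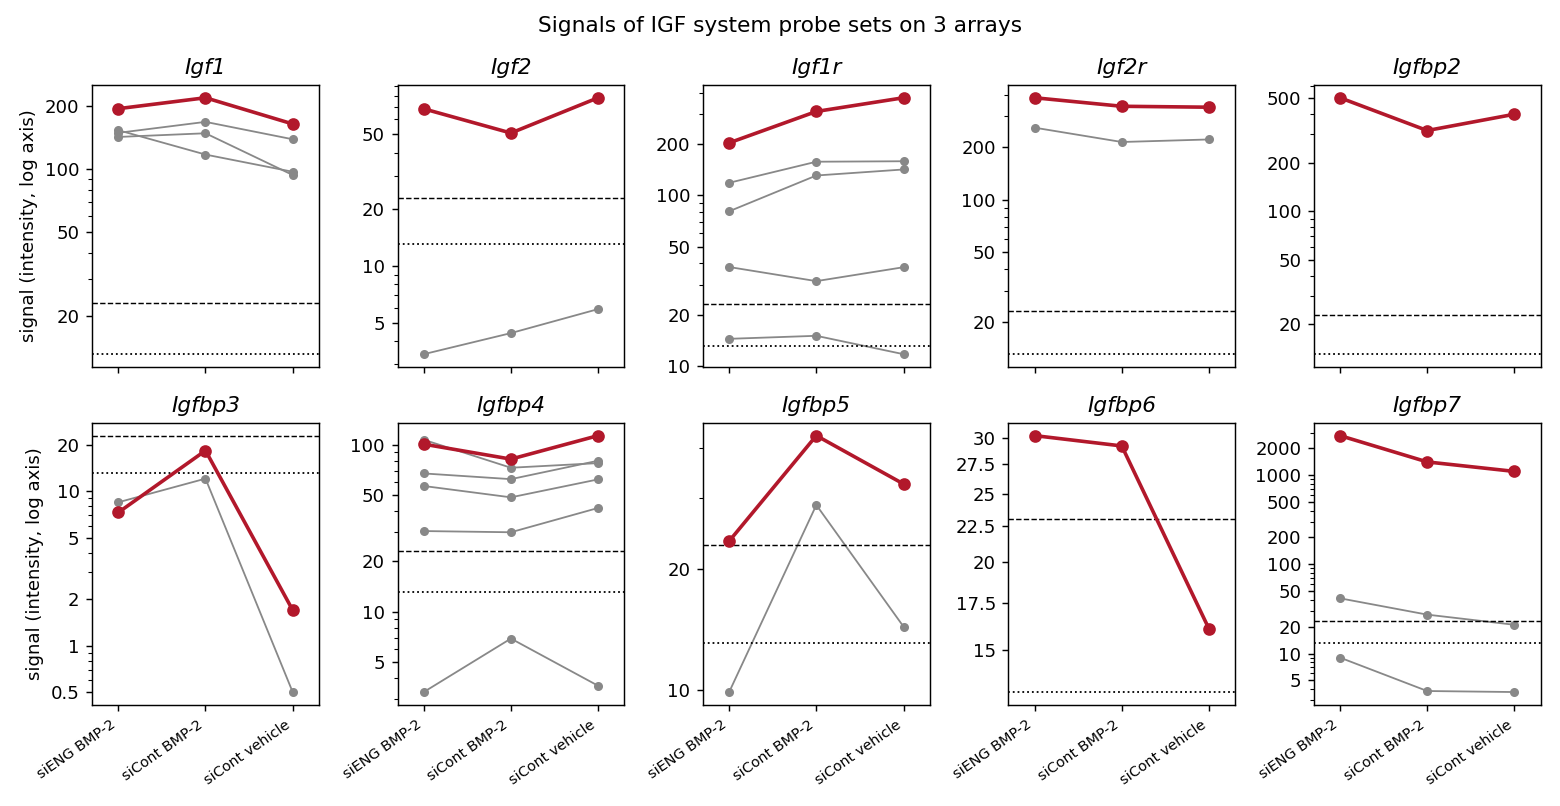
Signal (intensity, log axis, with its own range in each panel) of every IGF system probe set on the siENG BMP-2, siCont BMP-2 and siCont vehicle arrays, 1 array for each condition. Red marks the brightest probe set of each gene, grey the others, the dashed line the signal limit of 23.0 and the dotted line the highest Bacillus control, 13.1. In siENG BMP-2 cells Igfbp7 was highest on all 3 of its probe sets and Igf1r lowest on the 3 brightest of its 5, whereas by brightest probe set the Igf2r signals lay close together.

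Endoglin knockdown in the presence of BMP-2 was accompanied by a higher Igfbp7 signal and a lower Igf1r signal, and Igf1, Igf2, Igf2r, Igfbp4 and Igfbp6 stayed within 1.5-fold. Igfbp5, a dim gene, was lower by more than 2-fold on the relative scale only (log2 ratio -1.08, against -0.87 as deposited). As deposited, 0 of the 9 measured genes differed 2-fold or more, against 5.68% of all genes past the limit, and 4 differed 1.5-fold or more, against 21.5% of all genes. These were Igfbp2 and Igfbp7, higher in siENG cells, and Igf1r and Igfbp5, lower. On the relative scale 1 gene, Igfbp5, passed 2-fold (5.02% of all genes) and 3 passed 1.5-fold (15.6%), because Igfbp2 no longer did. These counts are of 3 or 4 genes among 9 and do not set the IGF system apart from other genes. The median relative log2 ratio of the 9 genes was -0.05, against 0.03 over 10854 genes, and 4 of the 9 were above 0.

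When BMP-2 was compared with vehicle in siCont cells, none of the 9 genes passed 2-fold, against 3.37% of all genes. Past 1.5-fold were 2 genes, Igfbp6, which was higher with BMP-2, and Igf2, which was lower, against 9.27% of all genes. Igfbp6 was dim, and its vehicle signal of 16.1 was below the signal limit. The median log2 ratio was 0.02, against 0.01 over 10810 genes, with 5 genes above 0 and 4 below. The siCont BMP-2 array is the upper term of this comparison and the lower term of the knockdown comparison, so an error on that array would push them in opposite directions.

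siENG BMP-2 cells were also set against siCont vehicle cells, a comparison that does not use the siCont BMP-2 array but differs in both siRNA and BMP-2. As deposited, only Igfbp7 of the 9 genes passed 2-fold, against 5.73% of all genes, and 3 passed 1.5-fold (Igfbp6 and Igfbp7 higher, Igf1r lower), against 22.0%. On the relative scale 2 passed 2-fold, Igfbp7 higher and Igf1r lower, against 5.1% of all genes, and 4 passed 1.5-fold, with Igfbp5 added among the lower ones, against 16.0%.

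**Figure D2:**
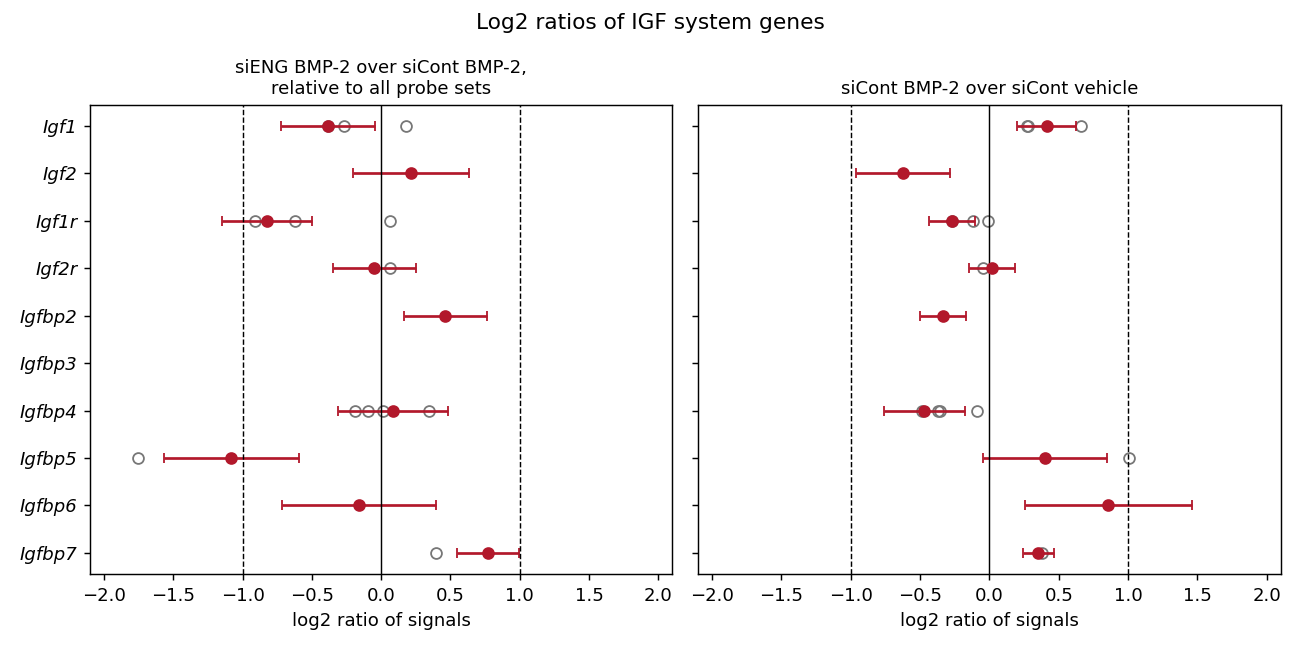
Log2 ratio of each IGF system gene for siENG BMP-2 to siCont BMP-2 (left, relative scale) and siCont BMP-2 to siCont vehicle (right). Igfbp3, below the signal limit, has no point, and dashed lines mark 2-fold. Red points are the brightest probe set with bars of ±1 robust SD among all probe sets of similar signal, and open points are other probe sets past the signal limit. Igfbp7 lay at 0.77 and Igf1r at -0.82 when siENG BMP-2 was set over siCont BMP-2.

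Sequence before the start of transcription is shown for Igfbp7, Igf1r and Igfbp5, on which the knockdown comparison turned, and for Igfbp2 and Igf1 as examples of windows with other matches. All 10 genes matched the RefSeq promoter table (GRCm38.p6), with 14 windows of 250 bases in all. They were searched on both strands for CAGAC, the core Smad motif, GGCGCC, a GC-rich Smad element, and ACGTG, the core of the hypoxia response element, and no match overlapped another motif. These motifs were chosen with results of these arrays known. Capitals mark the matches, and the sequences run 5′ to 3′ on the gene's strand, Igfbp7 from chr5:77408046-77408295 (minus strand), Igf1r from chr7:67952007-67952256 (plus), Igfbp5 from chr1:72874866-72875115 (minus), Igfbp2 from chr1:72824230-72824479 (plus) and Igf1 from chr10:87860861-87861110 (plus).
Igfbp7: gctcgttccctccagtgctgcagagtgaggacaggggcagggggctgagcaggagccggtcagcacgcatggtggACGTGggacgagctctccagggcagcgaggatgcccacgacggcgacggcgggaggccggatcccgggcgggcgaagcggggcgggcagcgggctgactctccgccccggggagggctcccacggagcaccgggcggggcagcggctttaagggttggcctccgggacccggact
Igf1r: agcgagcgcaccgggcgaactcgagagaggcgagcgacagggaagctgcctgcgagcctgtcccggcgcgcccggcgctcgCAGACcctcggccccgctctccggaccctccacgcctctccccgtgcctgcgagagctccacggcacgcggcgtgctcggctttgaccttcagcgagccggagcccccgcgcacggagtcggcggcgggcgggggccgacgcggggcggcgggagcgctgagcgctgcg
Igfbp5: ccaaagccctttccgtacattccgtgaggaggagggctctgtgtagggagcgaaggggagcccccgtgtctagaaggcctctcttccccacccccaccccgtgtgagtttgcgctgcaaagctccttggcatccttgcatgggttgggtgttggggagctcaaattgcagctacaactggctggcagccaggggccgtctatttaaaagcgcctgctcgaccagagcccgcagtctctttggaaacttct
Igfbp2: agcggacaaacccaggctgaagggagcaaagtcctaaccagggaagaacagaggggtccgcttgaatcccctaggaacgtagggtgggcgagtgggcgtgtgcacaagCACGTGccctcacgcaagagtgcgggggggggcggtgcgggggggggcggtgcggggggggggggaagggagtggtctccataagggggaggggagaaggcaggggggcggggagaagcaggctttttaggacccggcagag
Igf1: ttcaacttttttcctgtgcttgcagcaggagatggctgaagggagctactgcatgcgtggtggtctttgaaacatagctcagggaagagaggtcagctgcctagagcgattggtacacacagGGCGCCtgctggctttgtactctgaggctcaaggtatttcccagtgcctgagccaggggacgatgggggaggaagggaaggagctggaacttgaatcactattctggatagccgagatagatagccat

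ACGTG stood 175 bases before the start of Igfbp7, and CAGAC 169 bases before that of Igf1r. Igfbp2 holds CACGTG, which reads as ACGTG on both strands, and Igf1 holds GGCGCC 128 bases before its start. Over the 14 windows, ACGTG occurred in 4, against 16.6% of 32851 windows of all genes, CAGAC in 7, against 42.2%, and GGCGCC in 1, against 9.59%. The windows of Igfbp3, Igfbp4 and Igfbp5 hold none of these motifs, and Igf2r, whose signals differed least, holds ACGTG and CAGAC. These counts describe letters, not sites that a factor occupies.

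Among the ligands, Igf1, the main mediator of growth hormone action and also a local growth factor in bone, was somewhat higher with BMP-2 in siCont cells. Its brightest probe set gave 195.2 in siENG BMP-2, 220.1 in siCont BMP-2 and 165.0 in siCont vehicle cells. The log2 ratio of BMP-2 to vehicle in siCont cells was 0.42 (robust SD 0.21), and all 4 Igf1 probe sets were higher with BMP-2, by 0.27 to 0.66. Against siCont BMP-2, the siENG signal differed by a relative log2 ratio of -0.38 (robust SD 0.34). The probe sets did not run the same way here, since 1 of the 4 was higher in siENG cells, with signals of 154.0 in siENG BMP-2, 117.8 in siCont BMP-2 and 97.5 in siCont vehicle cells. Against vehicle, the relative log2 ratio of siENG BMP-2 cells was 0.02.

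Igf2, the imprinted fetal growth factor, was lowest in siCont BMP-2 cells. Signals were 68.3 in siENG BMP-2, 50.8 in siCont BMP-2 and 78.2 in siCont vehicle cells. The log2 ratio of BMP-2 to vehicle was -0.62 (robust SD 0.34). In siENG cells with BMP-2 it was higher than in siCont cells with BMP-2 by a relative log2 ratio of 0.22, which was less than the robust SD of 0.42. The other Igf2 probe set read 3.4 in siENG BMP-2, 4.4 in siCont BMP-2 and 5.9 in siCont vehicle cells, all within the Bacillus range, so the Igf2 values rest on 1 probe set.

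Of the receptors, Igf1r was lower in siENG BMP-2 cells than in either siCont culture. Its brightest probe set gave 203.5 in siENG BMP-2, 311.0 in siCont BMP-2 and 374.3 in siCont vehicle cells. The knockdown log2 ratio was -0.61 as deposited and -0.82 relative (robust SD 0.33), which placed the gene 110th from the lowest of 7128 genes whose brighter signal reached 152. The next brightest probe sets ran the same way. One gave 118.6 in siENG BMP-2, 157.7 in siCont BMP-2 and 158.7 in siCont vehicle cells, and the other 80.7 in siENG BMP-2, 130.9 in siCont BMP-2 and 142.0 in siCont vehicle cells. Their relative log2 ratios were -0.62 and -0.91.

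The remaining Igf1r probe sets were dim and did not show this. Signals of 38.0 in siENG BMP-2, 31.4 in siCont BMP-2 and 37.9 in siCont vehicle cells gave a relative knockdown log2 ratio of 0.07. The dimmest read 14.4 in siENG BMP-2, 15.0 in siCont BMP-2 and 11.7 in siCont vehicle cells and did not reach the limit. All 5 probe sets carry an accession in the annotation, 3 different ones, so some share one. Against vehicle, siENG BMP-2 cells had an Igf1r log2 ratio of -0.88 as deposited and -1.10 relative (robust SD 0.32), 44th from the lowest of 7130 genes. That ratio rested on the brighter probe sets: as deposited, the 4 past the limit ran from -0.88 to 0.00 and their mean was -0.53, and for the knockdown comparison the mean was -0.36. BMP-2 in siCont cells differed less, with a log2 ratio to vehicle of -0.27 (robust SD 0.17).

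By their brightest probe sets, Igf2r varied least of the 10 genes over the 3 arrays. It gave 383.6 in siENG BMP-2, 342.9 in siCont BMP-2 and 338.7 in siCont vehicle cells, and a further probe set gave 258.7 in siENG BMP-2, 214.2 in siCont BMP-2 and 221.5 in siCont vehicle cells. The log2 ratio of BMP-2 to vehicle was 0.02 and that of siENG to siCont with BMP-2 was 0.16 as deposited and -0.05 relative, so its sign depended on the scaling. The receptor that removes Igf2 thus differed less than Igf1r on the same arrays.

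The binding protein with the largest knockdown ratio among the brightly read members was Igfbp7, a secreted protein of the basement membrane and vessel wall that binds insulin and, weakly, IGFs. Signals were 2773.6 in siENG BMP-2, 1405.9 in siCont BMP-2 and 1100.9 in siCont vehicle cells. siENG BMP-2 cells thus stood 1.97-fold above siCont BMP-2 cells as deposited, just under the 2-fold limit, with log2 ratios of 0.98 as deposited and 0.77 relative (robust SD 0.22). The gene was 136th from the highest of 7128. Against vehicle, the siENG BMP-2 signal was 2.52-fold higher as deposited, with a relative log2 ratio of 1.11 (robust SD 0.22), 61st from the highest of 7130. BMP-2 alone was accompanied by a log2 ratio of 0.35 (robust SD 0.11) in siCont cells. A dimmer probe set, with 41.6 in siENG BMP-2, 27.3 in siCont BMP-2 and 21.0 in siCont vehicle cells, had the same order. The third read 9.0 in siENG BMP-2, 3.8 in siCont BMP-2 and 3.7 in siCont vehicle cells and stayed within the Bacillus range.

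Igfbp2, which carries an integrin-binding motif beside its IGF site, was lowest in siCont BMP-2 cells. It gave 504.5 in siENG BMP-2, 316.3 in siCont BMP-2 and 398.9 in siCont vehicle cells. The knockdown log2 ratio was 0.67 as deposited and 0.46 relative (robust SD 0.30), and BMP-2 against vehicle in siCont cells gave -0.33 (robust SD 0.17). Set against vehicle, siENG BMP-2 cells had a relative log2 ratio of only 0.12.

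Igfbp4, a binding protein that restrains IGF action until pappalysin cuts it, was also lowest in siCont BMP-2 cells, on all 5 of its probe sets past the limit. The brightest gave 100.8 in siENG BMP-2, 82.0 in siCont BMP-2 and 113.4 in siCont vehicle cells. All 5 of its probe sets past the limit were lower with BMP-2 than with vehicle in siCont cells, by log2 ratios of -0.48 to -0.09. The same 5 were higher in siENG than in siCont BMP-2 cells as deposited, by 0.02 to 0.56, but on the relative scale they ran from -0.19 to 0.35, with 0.09 (robust SD 0.40) for the brightest. The sixth read 3.3 in siENG BMP-2, 6.9 in siCont BMP-2 and 3.6 in siCont vehicle cells, within the Bacillus range. All 6 probe sets carry an accession, 3 different ones, so some share one, and several carry suffixes that mark probes matching more than 1 transcript.

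Igfbp5, which binds extracellular matrix and is abundant in bone, was highest in siCont BMP-2 cells and lowest in siENG BMP-2 cells on both of its probe sets. The brighter gave 23.5 in siENG BMP-2, 43.0 in siCont BMP-2 and 32.6 in siCont vehicle cells. Its knockdown log2 ratio was -0.87 as deposited and -1.08 relative (robust SD 0.49). The other gave 9.9 in siENG BMP-2, 28.9 in siCont BMP-2 and 14.4 in siCont vehicle cells. Because 9.9 lay within the Bacillus range, only a bound can be given there. If the dim signal of 28.9 is taken as exact, siENG was at least 2.21-fold lower than siCont BMP-2. The robust SD of that comparison was 0.63 on the log2 scale. BMP-2 against vehicle in siCont cells gave a log2 ratio of 0.40 (robust SD 0.45) on the brighter probe set. On the other it was 2.01-fold higher with BMP-2, with a robust SD of 0.60 on the log2 scale.

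Igfbp6, which prefers Igf2 as its ligand, had signals of 30.2 in siENG BMP-2, 29.2 in siCont BMP-2 and 16.1 in siCont vehicle cells. Both cultures with BMP-2 were thus above the vehicle culture, with a log2 ratio of 0.86 (robust SD 0.60) for siCont BMP-2 over vehicle. The knockdown log2 ratio was 0.05 as deposited and -0.16 relative, so its sign too depended on the scaling. Igfbp3, the chief IGF carrier of serum, gave 7.3 in siENG BMP-2, 18.4 in siCont BMP-2 and 1.7 in siCont vehicle cells. Only the siCont BMP-2 signal was above the Bacillus range, and it too was below the signal limit, so no Igfbp3 ratio was counted. If that dim signal is taken as exact, it was at least 1.4-fold higher than in siCont vehicle and siENG BMP-2 cells. On the log2 scale the robust SD was 1.69 for siCont BMP-2 over vehicle and 0.85 for siENG over siCont BMP-2. With signals floored at the median of all probe sets, both log2 ratios were 0.0, so no Igfbp3 difference is claimed. The other Igfbp3 probe set, with 8.5 in siENG BMP-2, 12.1 in siCont BMP-2 and 0.5 in siCont vehicle cells, was within the control range throughout.

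**Figure D3:**
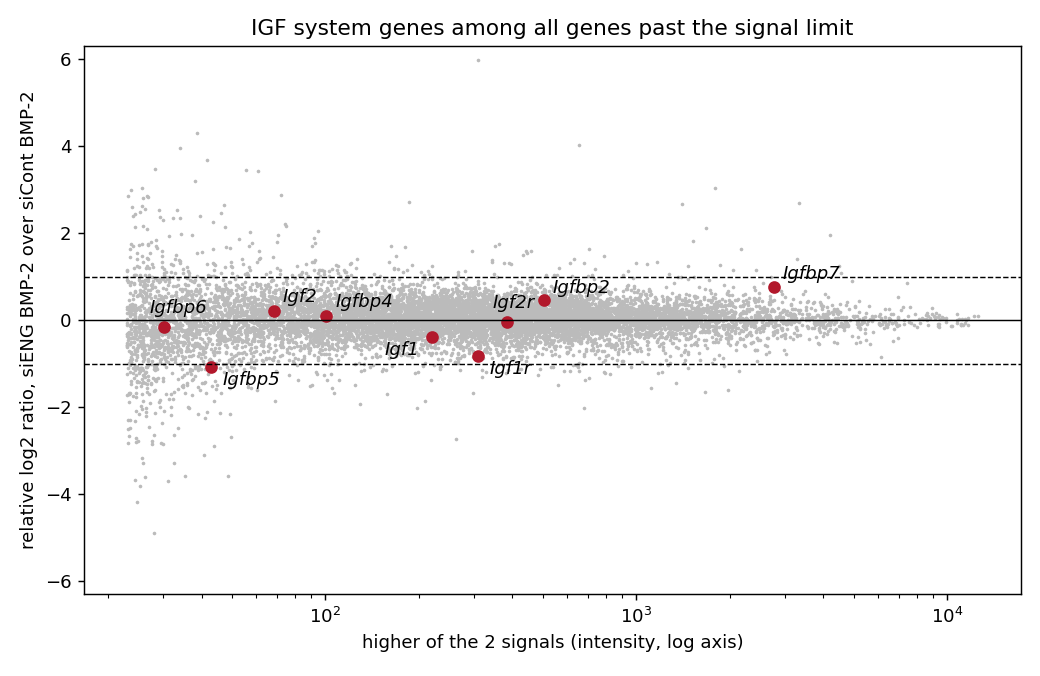
Relative log2 ratio, siENG BMP-2 to siCont BMP-2, plotted over the brighter array's signal (intensity, log axis) for all genes past the signal limit, in grey, with IGF system genes in red. Dashed lines mark 2-fold, and 10854 genes are drawn. Igfbp7 and Igf1r lay toward the edges of the cloud at their signal, and Igfbp5 lay beyond the 2-fold line in a dim range where ratios spread widely.

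The genes whose pattern over the 3 arrays was most like that of Igfbp7 were found by the Euclidean distance between their log2 ratios, of siCont BMP-2 to vehicle and of siENG to siCont BMP-2, among 7180 other genes. The nearest was 5430416N02Rik, with signals of 292.7 in siENG BMP-2, 151.8 in siCont BMP-2 and 120.5 in siCont vehicle cells (distance 0.038). It was followed by Hk2, the glycolytic enzyme hexokinase 2 (0.073), and Tet2, a 5-methylcytosine dioxygenase (0.077). For Igf1r they were Abcb10, a mitochondrial transporter, at a distance of 0.050, Deptor, an inhibitor of mTOR, at 0.066, and Tnrc18 at 0.073. Deptor gave 252.0 in siENG BMP-2, 402.5 in siCont BMP-2 and 490.8 in siCont vehicle cells. With 3 arrays, such likeness describes these arrays only.

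The remainder of the pathway was read with listed genes. Of 11 other ligands, receptors and carriers, 8 were matched and 3 passed the limit. In any comparison 0 passed 2-fold, against 3.37% to 5.73% of all genes. Insr, the insulin receptor, gave 85.9 in siENG BMP-2, 50.2 in siCont BMP-2 and 67.8 in siCont vehicle cells (relative knockdown log2 ratio 0.57). Igf2bp1 and Igf2bp3, RNA-binding proteins of Igf2 messenger RNA, had relative knockdown log2 ratios of 0.49 and 0.40. Like Igfbp2, Insr and Igf2bp1 were lowest in siCont BMP-2 cells. As deposited, 75.1% of all genes past the limit were higher in siENG than in siCont BMP-2 cells. The share of all genes lowest in siCont BMP-2 cells was not counted, so this order does not set these genes apart.

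Of 6 IGFBP proteases and inhibitors, 5 passed the limit. On the relative scale 1 was past 2-fold in the knockdown comparison, against 5.02% of all genes. Pappa2, a metalloprotease that cuts Igfbp5, gave 97.5 in siENG BMP-2, 38.1 in siCont BMP-2 and 58.7 in siCont vehicle cells. Its relative knockdown log2 ratio was 1.15 (robust SD 0.42). Igfbp5 RNA had the opposite order of signals, as given above. The arrays do not read cutting of the protein, and a link between these genes was not tested. Pappa, which cuts Igfbp4, gave 68.1 in siENG BMP-2, 60.6 in siCont BMP-2 and 61.9 in siCont vehicle cells. Stc2, an inhibitor of pappalysins, had a relative log2 ratio of 0.55. Adam12, also on this list, gave 212.9 in siENG BMP-2, 216.2 in siCont BMP-2 and 108.7 in siCont vehicle cells. It was 1.99-fold higher with BMP-2 than with vehicle in siCont cells (robust SD 0.21 on the log2 scale), just under the 2-fold limit. Its relative knockdown log2 ratio was -0.23. Across the list the median relative log2 ratio was -0.04, against 0.03 over all genes.

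Downstream of the receptors, 30 of 31 matched signalling genes passed the limit. Past 2-fold in the knockdown comparison on the relative scale was 1 of them, Inpp5d, against 5.02% of all genes. The siCont BMP-2 signal of Inpp5d, 7.5, was within the Bacillus range, with 34.3 in siENG BMP-2 and 25.7 in siCont vehicle cells. The median relative log2 ratio of these 30 genes was -0.04. Irs1, the docking protein that Igf1r phosphorylates, gave 560.6 in siENG BMP-2, 386.5 in siCont BMP-2 and 481.0 in siCont vehicle cells (relative log2 ratio 0.33, robust SD 0.30). Akt1 gave 929.1 in siENG BMP-2, 824.1 in siCont BMP-2 and 857.2 in siCont vehicle cells, a relative log2 ratio of -0.04. FoxO target genes are a readout that rises when Akt is less active. Of 15 past the limit, 0 passed 2-fold in the knockdown comparison, against 5.02% of all genes. Their median relative log2 ratio was 0.18, against 0.03 over all genes past the limit. The highest were Cdkn1b at 0.71 (robust SD 0.27) and Ccng2 at 0.69 (robust SD 0.22). The lowest was Bcl2l11 at -0.58 (robust SD 0.22). Akt activity itself was not measured. In siENG BMP-2 against vehicle 1 FoxO target passed 2-fold, Klf15, against 5.1% of all genes on the relative scale. Klf15 gave 79.3 in siENG BMP-2, 51.6 in siCont BMP-2 and 29.5 in siCont vehicle cells. The FoxO list shares Insr with the list of other receptors and Irs2 with the signalling list.

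**Figure D4:**
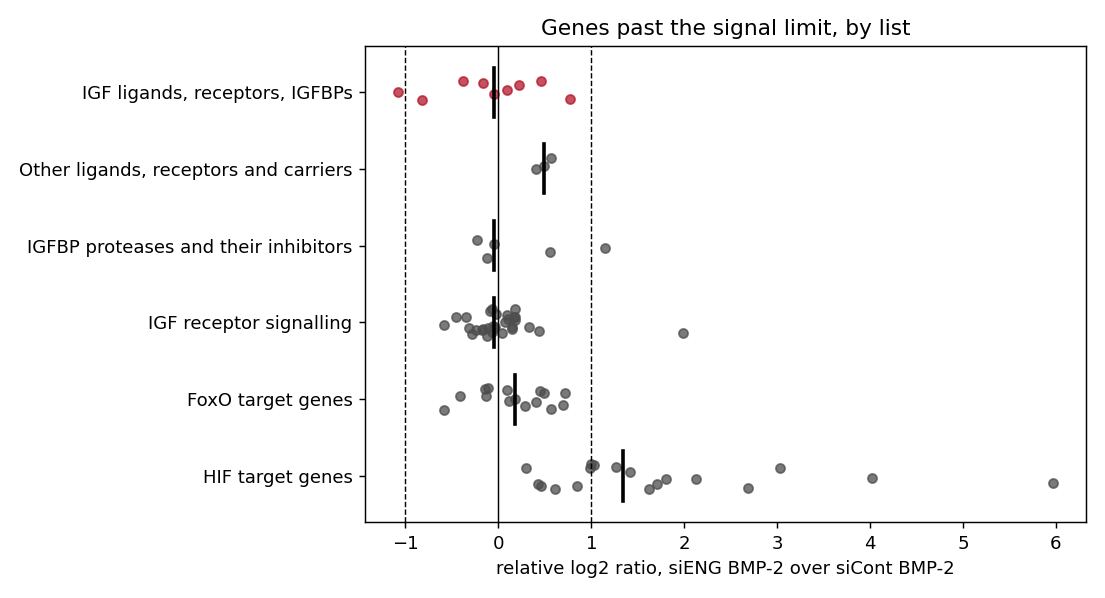
Relative log2 ratio, siENG BMP-2 to siCont BMP-2, for each gene past the signal limit in the IGF system, in the listed pathway genes and in HIF target genes, with 1 point for each gene and a bar at the median. The dashed lines mark 2-fold. Medians were -0.05 for the IGF system genes and 1.34 for the HIF targets, and the 3 other ligands, receptors and carriers lay between 0.40 and 0.57.

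Hypoxia-inducible factor (HIF) target genes differed along with siENG. Of 18 past the limit, 14 were 2-fold or more higher in siENG BMP-2 than in siCont BMP-2 cells as deposited, 11 on the relative scale, and 0 were lower. Of all genes, 5.68% passed 2-fold in either direction as deposited and 5.02% on the relative scale. The HIF list was chosen with earlier results of these arrays known, so its counts describe these arrays and are not a test. The median relative log2 ratio of the HIF targets was 1.34. The summed signal of the 19 matched genes was 34827 in siENG BMP-2, 14372 in siCont BMP-2 and 14211 in siCont vehicle cells. Pdk1, the kinase that holds back pyruvate dehydrogenase, gave 655.8 in siENG BMP-2, 34.8 in siCont BMP-2 and 49.2 in siCont vehicle cells. Ero1a, an oxidase of the endoplasmic reticulum, gave 1791.5 in siENG BMP-2, 189.7 in siCont BMP-2 and 211.1 in siCont vehicle cells, and Ankrd37 gave 311.0 in siENG BMP-2, 4.3 in siCont BMP-2 and 14.1 in siCont vehicle cells, of which 4.3 was within the Bacillus range. For siCont BMP-2 against vehicle the median log2 ratio of HIF targets was -0.09. The part of this difference in the values of Igfbp7, Igf1r and Igfbp5 was not tested.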

How the data were processed

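Total RNA of 3 PDL-L2 cultures was labelled and hybridised to mouse expression arrays, 1 for each condition. The authors deposited 1 linear signal intensity for each probe set and array, made with GCOS 1.4 per the submitters' processing notes. The scaling target was not given in the sources used here, and the number of arrays limits the precision. Of 45101 probe sets, 64 were controls, 34958 had 1 gene symbol, 932 had several and 9211 had none in the platform annotation. 4 zeros were set to 0.1. Ratios of deposited signals were taken as log2 in Python 3.11.15 with numpy 2.4.6 and pandas 2.3.3. The brightest probe set by mean log2 signal stood for a gene. A ratio counted where the higher signal reached 23.0, the median, and was called at 2 or more, or 0.5 or less. The robust SD was 1.4826 times the median absolute deviation in 20 bins of mean signal. Bounds set signals in the Bacillus range to its highest value. The steps were tested on simulated data with equal noise at all signals and with changes placed in bright probe sets only. That check does not cover ratios of the dim members. Named genes were all members, Eng, up to 6 genes of each pathway list past 2-fold, the 3 HIF targets with the largest knockdown ratios, and the 3 genes nearest in pattern to each of the 2 brightly read members of widest range. Insr, Igf2bp1, Igf2bp3, Irs1, Akt1, Pappa, Stc2, Adam12, Cdkn1b, Ccng2, Bcl2l11, Cd68, Csf1r and Lyz2 were added after values were seen. Members, lists and motifs were chosen with earlier results of these data known. Alternatives were another signal limit, a floor at it, quantile normalization, centring on the median, 2% trimmed mean or lowess curve (fraction 0.3; statsmodels 0.14.6), the mean over probe sets or any probe set, and 1.5-fold. No test between conditions was possible with 1 array each.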

Additional observations from a re-analysis of the deposited data

How the results depend on the processing

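With the settings used, 0 IGF system genes passed 2-fold between siENG BMP-2 and siCont BMP-2, 1 between siENG BMP-2 and siCont vehicle (Igfbp7) and 0 between siCont BMP-2 and siCont vehicle. With no signal limit these became 1, 2 and 1, each by Igfbp3. Median centring, 2% trimmed mean scaling and lowess centring each gave 1 (Igfbp5), 2 (Igf1r added) and 0, and quantile normalization gave 0, 2 and 0. The mean over probe sets gave 1 (Igfbp5), 1 and 0, and counting any probe set gave 1, 1 and 1, with Igfbp5 added. A limit of 1.5-fold gave 4, 3 and 2. The 75th percentile as limit (152) and a floor at the median left all counts as they were. Of 204 alternative log2 ratios of single genes, 191 moved by less than the robust SD and 13 by more. Many of the 191 could not move. A floor leaves signals above it unchanged, and Igf2, Igfbp2 and Igfbp6 had 1 probe set past the limit to choose or average. For dim genes the robust SD was wide, so these counts do not measure how stable the ratios are. The sign changed in 18: 12 for Igf2r, 4 for Igfbp6 and 1 each for Igf1 and Igfbp4. The knockdown log2 ratio ran from 0.76 to 0.98 for Igfbp7 and from -0.84 to -0.36 for Igf1r, and that of siENG BMP-2 to siCont vehicle from -1.12 to -0.53 for Igf1r. Apart from the alternatives whose construction shows it, the cause was not tested. Igfbp3, Igfbp5 and Igfbp6 were the dimmest members, and there the signal over background limits any ratio.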

Other observations

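A probe set that the platform annotation gives to both Airn and Igf2r, and that the rule of 1 symbol leaves out, read 16.8 in siENG BMP-2, 7.1 in siCont BMP-2 and 11.3 in siCont vehicle cells. Airn is the imprinted antisense transcript at Igf2r, and none of these signals reached the limit of 23.0.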
